A study of Mus musculus with 30 samples.

Results

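The early response of murine erythroleukemia (MEL) cells to DMSO was compared between WT and Abcb10-null cells, gene by gene, as the change from day 0 to day 2 in Abcb10-null cells minus the same change in WT cells. This difference of differences is the genotype by time interaction. It was computed from 20 of the 30 RNA-seq libraries of the series, 5 each of WT day 0, WT day 2, Abcb10-null day 0 and Abcb10-null day 2. MEL cells are virus-transformed mouse red cell precursors that stop at an early stage and resume erythroid maturation when DMSO is added. Day 0 cells were untreated, and day 2 cells had grown for 2 days in 1.5% DMSO. The other 10 libraries, 5 of each genotype, were of cells grown for 5 days in 1.5% DMSO, and they were used only where stated. Both genotypes came from the DS19 line and were grown in the same medium with added pyruvate, glutamine and nonessential amino acids. The Abcb10-null cells were 1 clone, made with a lentivirus that carried Cas9 and a guide to exon 1 of *Abcb10*, so that the effect of the genotype and any difference between clones cannot be told apart. Ribosomal and globin RNA had been depleted from every library. A positive interaction means that a transcript rose more, or fell less, in Abcb10-null cells than in WT cells.

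Abcb10 is a transporter of the inner mitochondrial membrane that erythroid cells make in large amounts as they mature, and it is needed for normal heme production. Erythroid maturation couples heme synthesis to protein synthesis, and immature cells shut down ribosome production as they progress. Cells sense missing amino acids or heme through kinases that phosphorylate the translation factor eIF2, which lowers general translation and raises translation of the transcription factor ATF4. ATF4 then switches on genes for amino acid synthesis, amino acid import and tRNA charging. Type I interferon acts through its receptor on a largely separate group of antiviral genes.

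Of 13980 genes tested, 3188 (22.8%) had an early response that differed between the genotypes at an adjusted p under 0.05 in edgeR's quasi-likelihood test. The interaction was positive for 1679 genes (12% of those tested) and negative for 1509 genes (10.8%). Gene groups below are read against these shares. Negative differences were larger, with a median of -1.09 on the log2 scale against 0.739 for positive ones, and 846 of the negative and 471 of the positive genes differed by more than 1 on that scale. Protein-coding genes made up 1535 of the positive and 1300 of the negative genes. The responses of the 5 Abcb10-null day 2 libraries all lay above those of the 5 WT libraries for 975 of the 1679 positive genes. Over all 13980 genes tested this held for 1200 (8.58%). All lay below for 998 of the 1509 negative genes, and for 1344 (9.61%) of all genes tested. The same libraries made the calls, so these counts are a description and not independent evidence.

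From day 0 to day 2, 29.3% of the genes tested rose and 28.7% fell in WT cells, and 21.7% rose and 21.5% fell in Abcb10-null cells. Most of the positive genes were ones that WT cells turned down. There were 706 genes (42.0% of the positive ones) that fell in WT cells without a called response in Abcb10-null cells, 326 (19.4%) that fell in both and less in Abcb10-null cells, and 122 (7.27%) that fell in WT cells and rose in Abcb10-null cells. Another 442 genes (26.3%) rose in Abcb10-null cells with no called response in WT cells. Among negative genes, 831 (55.1%) rose in WT cells without a called response in Abcb10-null cells, 168 (11.1%) rose in both and less in Abcb10-null cells, 98 (6.49%) rose in WT and fell in Abcb10-null cells, and 297 (19.7%) fell in Abcb10-null cells alone among the called responses. The genotypes differed at day 2 and not at day 0 for 1212 of the positive genes (72.2%) and 1098 of the negative genes (72.8%). For 232 positive and 209 negative genes the difference was called at day 0 and not at day 2.

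**Figure D1:**
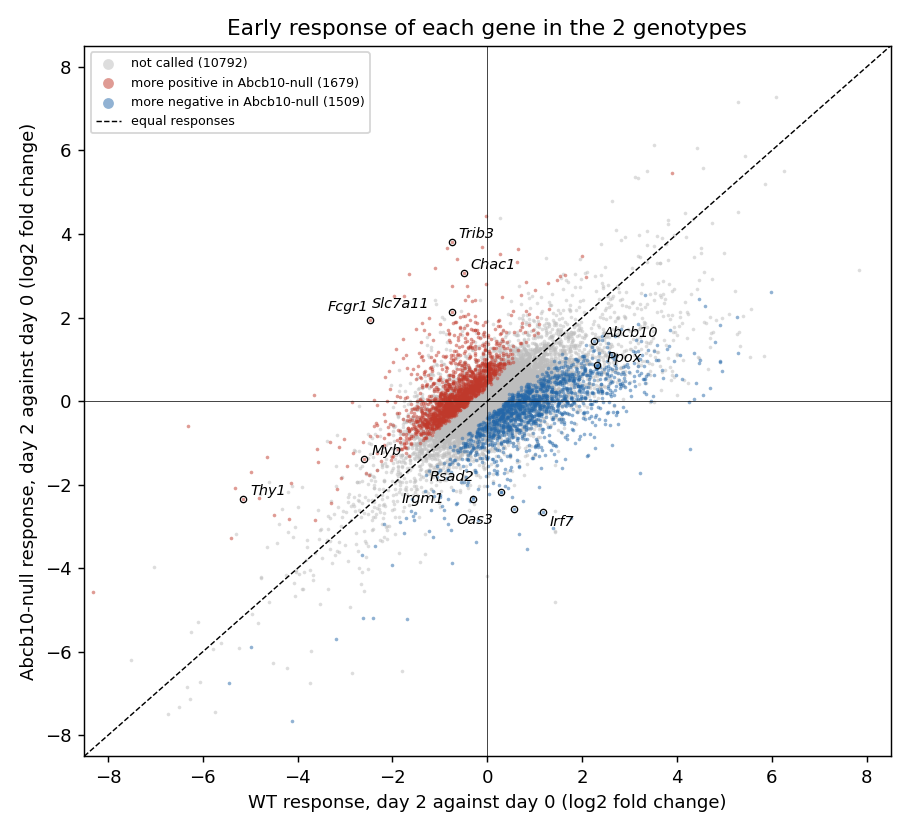
Log2 fold change from day 0 to day 2 in WT cells (horizontal axis) and in Abcb10-null cells (vertical axis) for the 13980 genes tested, with the 1679 genes of positive and the 1509 of negative interaction in colour and 2 genes outside the axes. Positive genes lie above the diagonal, mostly at negative WT responses, and negative genes lie below it, mostly at positive WT responses.

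*Abcb10* itself (chromosome 8, 123952459 to 123983122, on mouse assembly GRCm38, as are all positions here) remained transcribed in the edited clone. In WT cells *Abcb10* measured 127, 125, 117, 114 and 119.6 CPM at day 0 and 651, 662, 482, 547 and 511 CPM at day 2. In Abcb10-null cells *Abcb10* measured 71.97, 76.7, 67.8, 79.2 and 76.03 CPM at day 0 and 162, 169, 309, 187 and 182 CPM at day 2. Values run from replicate 1 to replicate 5 here and below, in CPM, the count relative to the library size after TMM scaling. On either day the highest Abcb10-null value was under the lowest WT value, so the groups did not overlap. Its response was 2.24 ± 0.14 (adjusted p = 3.96e-11) in WT and 1.44 ± 0.14 (adjusted p = 2.48e-08) in Abcb10-null cells, with an interaction log2 fold change of -0.80 ± 0.19 (SE; edgeR adjusted p = 0.00622). Counts over a gene that was disrupted in exon 1 do not show whether protein is made. The study reports from Western blots that this clone had lost the Abcb10 protein.

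Totals of the 20 libraries of days 0 and 2 ran from 13829992 to 20157768 counts. On the first principal components, which held 44.8% and 17.9% of the variance, 4 libraries stood apart within their groups. Replicates 2 and 5 of Abcb10-null day 2 scored -1.67 and 28 on the second component, against 64.4 to 78 for the other 3, and replicates 1 and 2 of WT day 2 scored 101 and 99.2 on the first, against 53.9 to 64.5. Small noncoding and ribosomal RNA genes took 5.12 and 6.6% of the counts in that Abcb10-null pair, against 2.01 to 3.34% in the rest of its group. They took 3.13 and 2.82% in that WT pair, against 5.42 to 6.06%. The part of this difference in the split was not tested. Without the pair of Abcb10-null libraries, 2774 genes had a positive and 3005 a negative interaction, and without the pair of WT libraries 965 and 826 did. Leaving out Abcb10-null day 2 replicate 2 alone gave 2376 positive and 2384 negative genes, and leaving out replicate 4 alone gave 1092 positive genes. Counts for the main gene lists are therefore given with and without these pairs. The summed CPM of erythroid markers was 2650 to 2900 in WT day 0, 4890 to 6620 in WT day 2, 2790 to 3100 in Abcb10-null day 0 and 3210 to 4240 in Abcb10-null day 2 libraries, and all 12 were detected in each group. In bulk RNA, fewer cells of a kind and less RNA per cell cannot be told apart. Nothing in the labels says how the replicates were grown, so p-values measure the spread between these libraries.

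**Figure D2:**
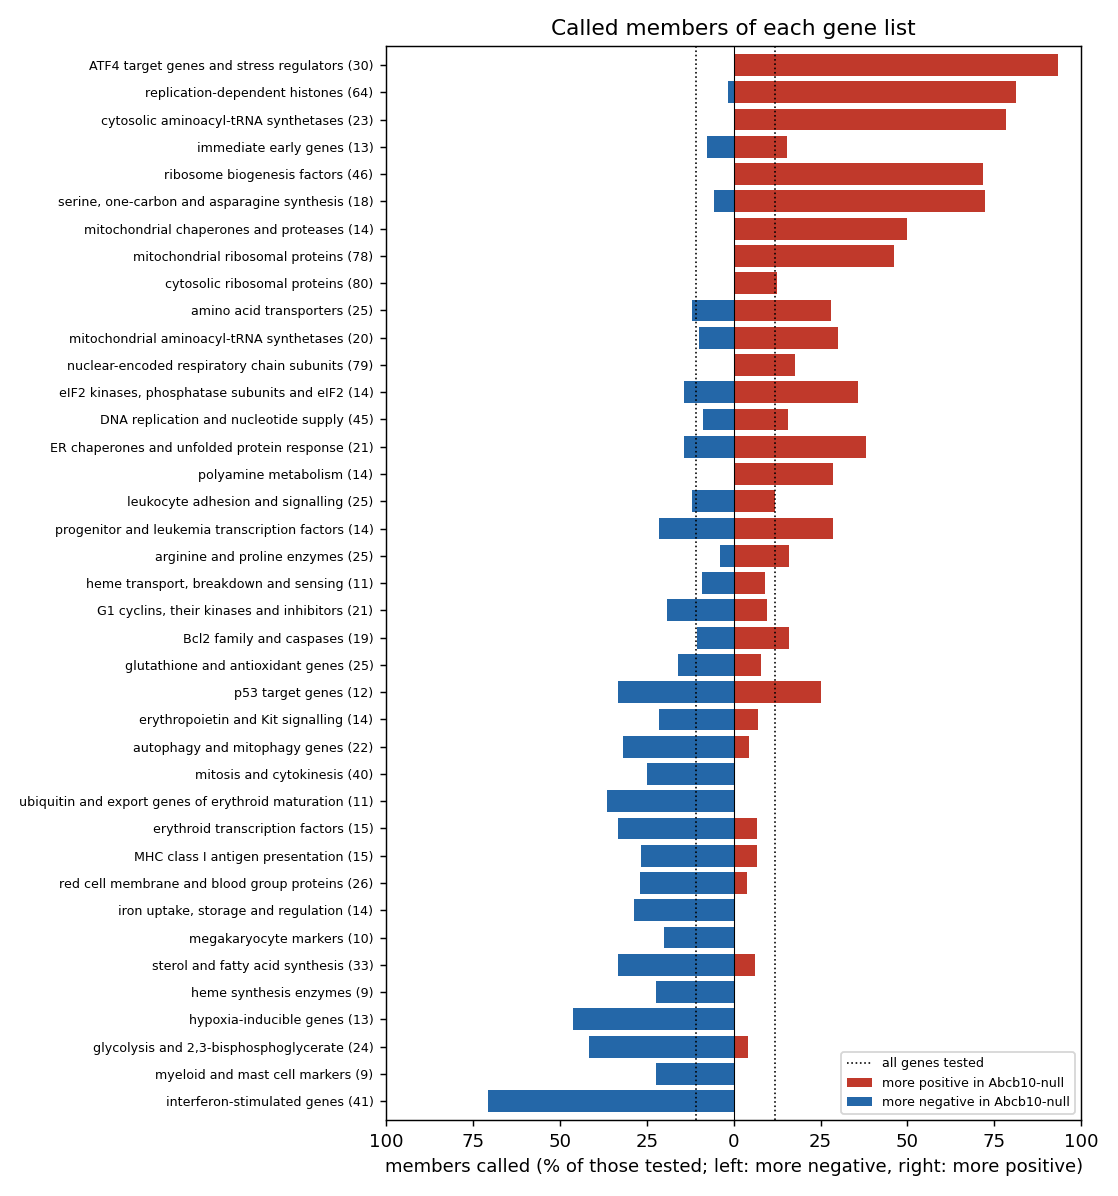
Percent of each list's tested members (number in brackets) whose interaction was called negative (bars to the left) or positive (bars to the right), with dotted lines at 10.8% and 12%, the shares of all genes tested. ATF4 targets, with 28 of 30 positive, stand at the top and interferon-stimulated genes, with 29 of 41 negative, at the bottom.

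Interferon-stimulated genes fell in Abcb10-null cells and not, as a group, in WT cells. Of 41 tested, 29 had a negative interaction, with a list median of -1.4 against 0.019 for all genes, and none a positive one by edgeR (0 at an unadjusted p under 0.05 and 0 by DESeq2). Without the set-apart Abcb10-null libraries 32 were negative, and without the set-apart WT libraries 30. These genes started high in the Abcb10-null clone: at day 0, before DMSO, 38 of the 41 were higher there than in WT cells, with a median log2 difference of 2.69, while of all genes tested 8.05% were higher and 5.52% lower. By day 2, 32 were still higher and 1 lower, at a median of 0.95, against 23.8% and 20.9% of all genes. In Abcb10-null cells 36 fell, while in WT cells 15 rose and 11 fell.

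*Irf7* (chromosome 7, 141262706 to 141266481), the transcription factor that amplifies type I interferon production, had the lowest interaction among genes named by rank. In WT cells *Irf7* measured 2.81, 2.44, 2.59, 2.204 and 1.33 CPM at day 0 and 2.92, 6.27, 4.54, 6.56 and 5.29 CPM at day 2. In Abcb10-null cells *Irf7* measured 41.7, 62.5, 75.3, 59.5 and 71.1 CPM at day 0 and 6.65, 7.89, 16.04, 10.5 and 8.49 CPM at day 2. Every Abcb10-null library was above every WT library at both days, and the gap narrowed at day 2. *Irf7* had an interaction log2 fold change of -3.81 ± 0.35 (SE; edgeR adjusted p = 6.57e-07), from a response of 1.164 ± 0.26 (adjusted p = 0.000661) in WT and -2.65 ± 0.23 (adjusted p = 5.71e-09) in Abcb10-null cells.

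*Rsad2* (chromosome 12, 26442746 to 26456452) encodes viperin, an antiviral enzyme that makes a chain-terminating nucleotide. In WT cells *Rsad2* measured 4.701, 4.503, 4.896, 4.19 and 5.21 CPM at day 0 and 5.66, 5.92, 6.84, 4.704 and 5.46 CPM at day 2. In Abcb10-null cells *Rsad2* measured 134, 143, 134, 144 and 135 CPM at day 0 and 28.8, 16.98, 50.4, 30.8 and 25.9 CPM at day 2. The WT values stayed under every Abcb10-null value, and all 5 Abcb10-null libraries of day 2 lay under those of day 0. *Rsad2* had an interaction log2 fold change of -2.45 ± 0.27 (SE; edgeR adjusted p = 4.27e-06).

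*Irgm1* (chromosome 11, 48861968 to 48871683) encodes an interferon-inducible GTPase of membrane defence. In WT cells *Irgm1* measured 18.7, 16.8, 22.5, 14.9 and 15.7 CPM at day 0 and 14.2, 13.02, 14.7, 16.96 and 12.7 CPM at day 2. In Abcb10-null cells *Irgm1* measured 98.5, 102, 110.4, 106 and 114 CPM at day 0 and 15.2, 19.6, 27.05, 21.9 and 21.6 CPM at day 2. At day 0 the genotypes were far apart, and at day 2 the lowest Abcb10-null value lay within the range of the WT values. *Irgm1* had an interaction log2 fold change of -2.02 ± 0.19 (SE; edgeR adjusted p = 6.57e-07).

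*Eif2ak2* (chromosome 17, 78852564 to 78882573) encodes PKR, an interferon-inducible kinase that phosphorylates eIF2 when bound to double-stranded RNA. In WT cells *Eif2ak2* measured 77.9, 69.8, 77.9, 81.2 and 74.2 CPM at day 0 and 113, 111, 99.2, 102 and 90.8 CPM at day 2. In Abcb10-null cells *Eif2ak2* measured 196, 206, 171, 182 and 199 CPM at day 0 and 97.97, 106, 141, 95.2 and 114 CPM at day 2. It began higher in Abcb10-null cells, and by day 2 the genotypes overlapped. *Eif2ak2* had an interaction log2 fold change of -1.22 ± 0.14 (SE; edgeR adjusted p = 8.86e-06), with a response in WT of 0.44 ± 0.10 (adjusted p = 0.000751) and in Abcb10-null cells of -0.78 ± 0.10 (adjusted p = 1.43e-06) on the log2 scale.

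Other members followed the same course. The interaction by edgeR was -3.14 ± 0.29, adjusted p = 6.57e-07, for the oligoadenylate synthetase gene *Oas3*, which activates RNA decay, and -3.16 ± 0.64, adjusted p = 0.00194, for its relative *Oasl2*. It was -2.31 ± 0.21, adjusted p = 6.57e-07, for *Cmpk2*, a mitochondrial nucleotide kinase gene next to *Rsad2*, and -1.55 ± 0.17, adjusted p = 4.15e-06, for *Igtp*, another interferon-inducible GTPase. *Lgals3bp*, which encodes a secreted glycoprotein, had -2.50 ± 0.27, adjusted p = 4.27e-06. In the list of MHC class I antigen presentation, 4 of 15 tested genes were negative and 1 positive, with a median of -0.24. The peptide transporter subunit *Tap1* had an interaction of -0.99 ± 0.18, adjusted p = 0.000915, its partner *Tapbp* -1.44 ± 0.24, adjusted p = 0.000517, and the nonclassical MHC gene *H2-T23* -1.46 ± 0.14, adjusted p = 1.03e-06. The exception was *Psmb10*, an immunoproteasome subunit, at 0.73 ± 0.18, adjusted p = 0.00705, which fell in both genotypes.

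Promoters of 3 of these genes are shown because they carry the core of the interferon-stimulated response element, 2 copies of GAAA separated by any 2 bases, which is in capitals. Each is 300 bases of RefSeq on GRCm38.p6, from 250 bases before the annotated start to 50 after it, read 5′ to 3′ on the gene's strand. That of *Rsad2* is chr12:26456403-26456702, minus strand, that of *Irgm1* chr11:48871371-48871670, minus strand, and that of *Oas3* chr5:120777610-120777909, minus strand.
Rsad2: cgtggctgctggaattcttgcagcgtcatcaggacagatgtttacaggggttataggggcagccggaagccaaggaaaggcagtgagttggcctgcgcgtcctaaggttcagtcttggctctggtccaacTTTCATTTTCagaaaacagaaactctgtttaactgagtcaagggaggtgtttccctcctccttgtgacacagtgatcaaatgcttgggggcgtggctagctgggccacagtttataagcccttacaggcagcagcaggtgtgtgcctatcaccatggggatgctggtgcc
Irgm1: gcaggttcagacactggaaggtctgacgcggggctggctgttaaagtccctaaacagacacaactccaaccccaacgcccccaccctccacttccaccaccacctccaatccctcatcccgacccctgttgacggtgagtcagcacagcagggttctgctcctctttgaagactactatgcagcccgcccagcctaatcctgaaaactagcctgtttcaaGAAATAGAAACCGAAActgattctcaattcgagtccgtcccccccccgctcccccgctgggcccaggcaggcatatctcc
Oas3: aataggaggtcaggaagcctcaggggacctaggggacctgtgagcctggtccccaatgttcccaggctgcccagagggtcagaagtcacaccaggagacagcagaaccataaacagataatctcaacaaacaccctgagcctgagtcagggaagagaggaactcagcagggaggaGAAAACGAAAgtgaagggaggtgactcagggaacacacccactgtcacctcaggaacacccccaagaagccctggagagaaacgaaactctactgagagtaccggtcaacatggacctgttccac
The match starts at position -120 in *Rsad2* and -75 in *Oas3*, counted from the annotated start, and *Irgm1* holds 2 overlapping matches at -30 and -24. Of the 29 negative interferon-stimulated genes, 22 had a promoter in the table, and 13 of those (59.1%) held the letters on either strand, against 2.98% of the 9556 promoters of tested genes. The windows of *Irf7* and *Cmpk2* did not hold them. Fewer than 80% of the 29 genes had a window, so the share is a description of the windows present.

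**Figure D3:**
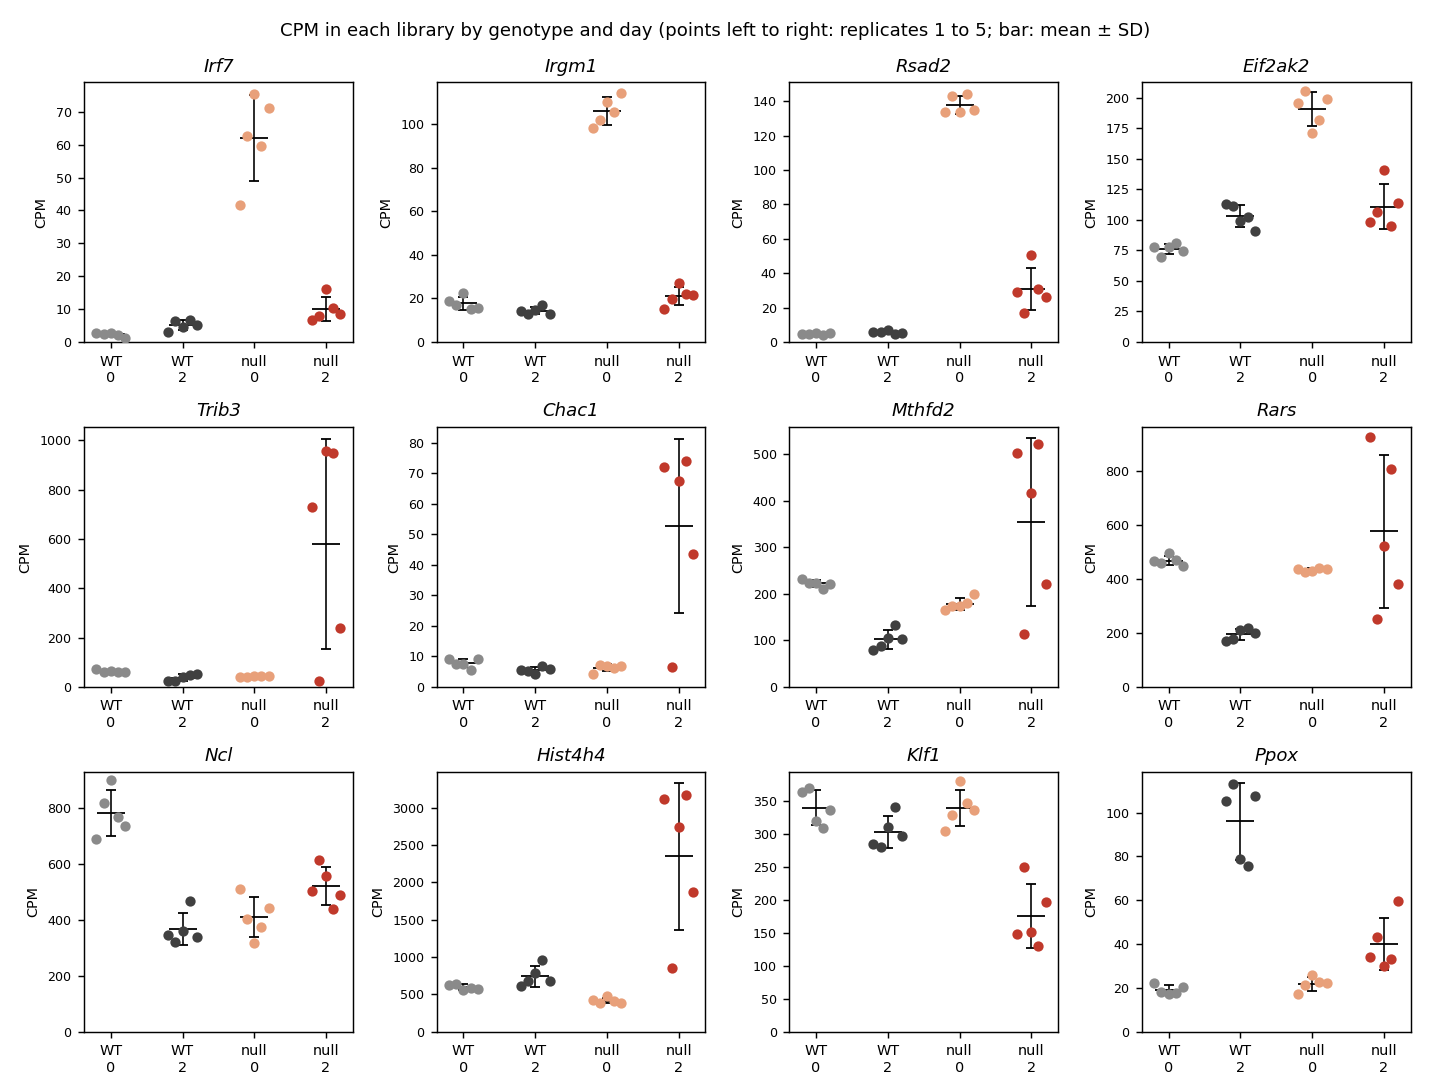
CPM (linear axes from 0) of 12 genes in each of the 20 libraries, by genotype and day, with 1 point a library and bars for the mean and SD of 5. *Irf7* and *Rsad2* start high in Abcb10-null cells and fall, and *Trib3* and *Chac1* are high in all Abcb10-null day 2 libraries except replicate 2.

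Genes of the ATF4 program rose in Abcb10-null cells and mostly fell or had no called response in WT cells. Of 30 ATF4 targets and stress regulators tested, 28 were positive, with a median log2 difference of 1.8, and none was negative by edgeR (0 at an unadjusted p under 0.05 and 0 by DESeq2). In Abcb10-null cells 24 of the 30 rose by day 2, whereas in WT cells 14 fell and 1 rose. Only 1 was called higher in Abcb10-null cells at day 0, 2 were called lower, and 29 were called higher at day 2. The list still began somewhat lower in Abcb10-null cells, at a day 0 median of -0.38 against -0.019 for all genes tested. A lower start therefore entered these interactions beside the level reached at day 2. The program was uneven between libraries. The median response of the 30 genes was 1.70, -0.366, 1.20, 1.59 and 0.535 on the log2 scale in Abcb10-null day 2 replicates 1 to 5, and -0.832 to -0.451 in the WT libraries, so replicate 2 did not show it and replicate 5 showed less of it. Without these 2 libraries 29 of the 30 were positive, and without the set-apart WT libraries 27.

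**Figure D4:**
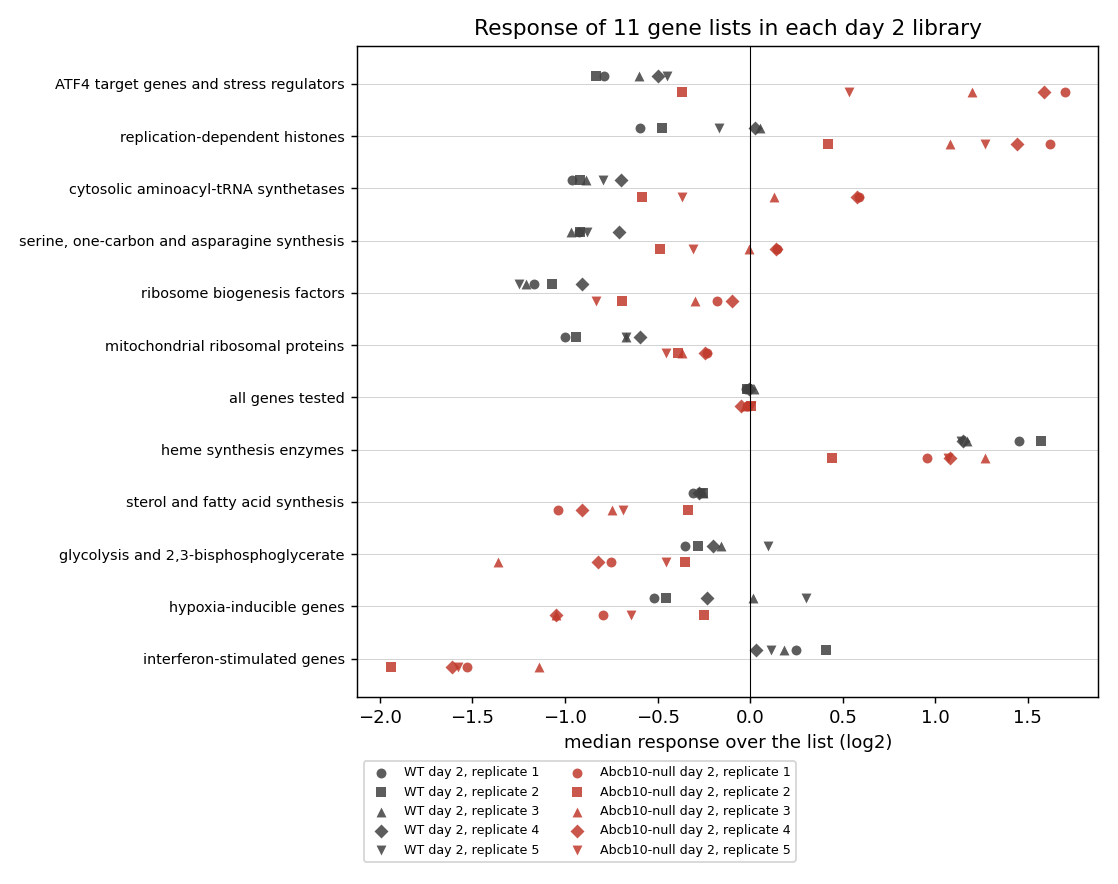
Median log2 response over the members of 11 lists and over all genes tested (horizontal axis), in every day 2 library relative to the day 0 mean of its genotype, with 1 point a library. For ATF4 targets Abcb10-null replicate 2, at -0.366, is nearest to the WT libraries, and for interferon-stimulated genes it is the farthest from them, at -1.94.

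*Trib3* (chromosome 2, 152337422 to 152344032), a pseudokinase gene that ATF4 and CHOP induce and that dampens them in turn, had the largest value of the list. In WT cells *Trib3* measured 73.9, 60.1, 62.6, 61.8 and 59.1 CPM at day 0 and 25.1, 24.98, 38.7, 48.96 and 50.8 CPM at day 2. In Abcb10-null cells *Trib3* measured 37.9, 40.6, 42.9, 42.9 and 44.1 CPM at day 0 and 728, 23.7, 955, 949 and 240.1 CPM at day 2. In day 2 Abcb10-null cells 4 libraries were far above all others, and replicate 2, at 23.7 CPM, was below every WT library. *Trib3* had an interaction log2 fold change of 4.55 ± 0.71 (SE; edgeR adjusted p = 0.000305).

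*Ddit3* (chromosome 10, 127290774 to 127296288) encodes CHOP, a transcription factor of prolonged stress. In WT cells *Ddit3* measured 67.997, 68.1, 66.3, 70.1 and 70.01 CPM at day 0 and 43.96, 43.9, 54.5, 48.7 and 62.5 CPM at day 2. In Abcb10-null cells *Ddit3* measured 49.8, 53.5, 55.9, 52.1 and 50.3 CPM at day 0 and 504, 29.9, 492, 509 and 218 CPM at day 2. Again replicate 2 was below the WT range and replicate 5 between it and the other 3. *Ddit3* had an interaction log2 fold change of 3.18 ± 0.55 (SE; edgeR adjusted p = 0.000711).

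*Atf4* (chromosome 15, 80255184 to 80257541) is controlled mostly at translation, so its transcript is only part of its output. In WT cells *Atf4* measured 482, 465, 477, 454 and 465 CPM at day 0 and 211, 198, 234, 295 and 237 CPM at day 2. In Abcb10-null cells *Atf4* measured 328, 313, 350.4, 354 and 323 CPM at day 0 and 581, 197, 605, 636 and 387 CPM at day 2. It fell in WT cells, and at day 2 all Abcb10-null libraries were above the WT libraries except replicate 2, which was just below them. *Atf4* had an interaction log2 fold change of 1.52 ± 0.28 (SE; edgeR adjusted p = 0.000987), from -0.995 ± 0.20 (adjusted p = 0.000171) in WT and 0.53 ± 0.20 (adjusted p = 0.0315) in Abcb10-null cells.

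*Chac1* (chromosome 2, 119351229 to 119354381) encodes an enzyme that breaks down glutathione. In WT cells *Chac1* measured 9.001, 7.603, 7.48, 5.66 and 9.02 CPM at day 0 and 5.48, 5.03, 4.1999, 6.81 and 5.86 CPM at day 2. In Abcb10-null cells *Chac1* measured 4.19, 7.195, 6.96, 6.07 and 6.95 CPM at day 0 and 72.003, 6.57, 67.3, 73.9 and 43.6 CPM at day 2. Replicate 2 lay within the WT range and the other 4 libraries above it. *Chac1* had an interaction log2 fold change of 3.57 ± 0.53 (SE; edgeR adjusted p = 0.000163).

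*Slc7a11* (chromosome 3, 49892526 to 50443614) encodes the cystine importer that feeds glutathione synthesis. In WT cells *Slc7a11* measured 53.4, 44.5, 51.04, 56.7 and 47.8 CPM at day 0 and 29.5, 26.3, 34.8, 34.2 and 26.7 CPM at day 2. In Abcb10-null cells *Slc7a11* measured 45.7, 42.97, 42.8, 49.8 and 55.98 CPM at day 0 and 331, 35.5, 262, 341 and 67.3 CPM at day 2. All 5 Abcb10-null libraries of day 2 were above the WT libraries, replicate 2 by the least. *Slc7a11* had an interaction log2 fold change of 2.87 ± 0.53 (SE; edgeR adjusted p = 0.00109). Its partner subunit gene *Slc3a2*, which also serves other importers, had 1.86 ± 0.33, adjusted p = 0.000838 by edgeR.

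*Nupr1*, a stress-induced chromatin protein gene, had an interaction of 2.71 ± 0.43, adjusted p = 0.000371, and *Herpud1*, which takes part in degradation of proteins of the endoplasmic reticulum, 2.07 ± 0.36, adjusted p = 0.000691, both by edgeR. *Gpt2*, the mitochondrial alanine aminotransferase, had 2.18 ± 0.37, adjusted p = 0.000593. The promoters of *Chac1* (chr2:119350992-119351291, plus strand) and *Slc7a11* (chr3:50443564-50443863, minus strand) are shown for the letters TGATGNAA, the core of the composite site that ATF4 shares with CHOP and C/EBP proteins, in capitals.
Chac1: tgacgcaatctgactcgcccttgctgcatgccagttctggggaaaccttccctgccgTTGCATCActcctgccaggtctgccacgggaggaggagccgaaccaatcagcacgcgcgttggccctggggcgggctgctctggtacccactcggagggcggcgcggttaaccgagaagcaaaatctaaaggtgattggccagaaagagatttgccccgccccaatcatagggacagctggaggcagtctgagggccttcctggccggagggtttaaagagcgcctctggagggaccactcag
Slc7a11: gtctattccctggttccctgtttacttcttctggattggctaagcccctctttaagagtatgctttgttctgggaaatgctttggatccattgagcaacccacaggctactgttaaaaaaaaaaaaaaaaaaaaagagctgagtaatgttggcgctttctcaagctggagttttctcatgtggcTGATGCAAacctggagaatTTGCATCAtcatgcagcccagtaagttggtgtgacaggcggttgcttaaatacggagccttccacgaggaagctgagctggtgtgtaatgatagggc
The match in *Chac1* starts at -193, and *Slc7a11* holds 2, at -66 and -47. Of the 28 positive ATF4 list genes, 24 had a promoter in the table and 7 of these (29.2%) held the letters on either strand, against 2.11% of the 9556 promoters of tested genes. Those of *Ddit3* and *Mthfd2* did not.

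Enzymes that charge tRNAs in the cytosol were mostly positive too. Of 23 cytosolic aminoacyl-tRNA synthetases and their partners, 18 were positive, at a median of 1.0, and none was negative by edgeR (0 at an unadjusted p under 0.05 and 0 by DESeq2). In WT cells 19 of the 23 fell, and in Abcb10-null cells 6 rose and 6 fell. The count was 21 without the set-apart Abcb10-null libraries and 13 without the set-apart WT libraries. Of the 18 positive genes, 13 had a promoter in the table, and 5 of those held the ATF4 letters, again with fewer than 80% of the genes covered.

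*Rars* (chromosome 11, 35808381 to 35834506) encodes the synthetase for arginine. In WT cells *Rars* measured 465, 460.03, 496, 471 and 447 CPM at day 0 and 171, 176, 210.5, 217 and 198 CPM at day 2. In Abcb10-null cells *Rars* measured 436, 424, 428, 441 and 436 CPM at day 0 and 924, 250.4, 521, 808 and 383 CPM at day 2. All Abcb10-null libraries of day 2 were above the WT libraries of that day, but replicates 2 and 5 were below the day 0 level. *Rars* had an interaction log2 fold change of 1.68 ± 0.30 (SE; edgeR adjusted p = 0.000919). The interaction by edgeR was 1.54 ± 0.28, adjusted p = 0.000986, for the asparagine enzyme *Nars*, 1.29 ± 0.25, adjusted p = 0.00149, for the glycine enzyme *Gars*, and 1.02 ± 0.18, adjusted p = 0.000759, for the isoleucine enzyme *Iars*. Among 20 mitochondrial synthetases, which serve the separate translation system of that organelle, 6 were positive and 2 negative, and 11 and 2 without the set-apart Abcb10-null libraries and 4 and 1 without the set-apart WT libraries. The positive ones included *Iars2* at 0.54 ± 0.13, adjusted p = 0.00735, and the negative ones *Aars2* at -0.54 ± 0.12, adjusted p = 0.00322, by edgeR.

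Serine, one-carbon and asparagine synthesis showed 13 positive genes and 1 negative gene of 18 tested, at a median of 0.67. These counts were 16 and 2 without the set-apart Abcb10-null libraries, and 11 and 1 without the set-apart WT libraries. *Mthfd2* (chromosome 6, 83305691 to 83325908) encodes a mitochondrial enzyme of the folate cycle. In WT cells *Mthfd2* measured 233, 224, 223, 209.8 and 222 CPM at day 0 and 79.995, 88.4, 105, 132 and 104 CPM at day 2. In Abcb10-null cells *Mthfd2* measured 166, 173, 174, 181 and 199.6 CPM at day 0 and 502, 113, 418, 522 and 221 CPM at day 2. Its WT values fell at day 2, and in Abcb10-null cells replicate 2 alone was below the day 0 level. *Mthfd2* had an interaction log2 fold change of 2.12 ± 0.36 (SE; edgeR adjusted p = 0.000606). *Psat1*, of serine synthesis, had 1.07 ± 0.20, adjusted p = 0.00134, *Shmt2*, which transfers the carbon of serine, 1.19 ± 0.24, adjusted p = 0.00172, and the asparagine synthetase gene *Asns* 1.41 ± 0.28, adjusted p = 0.00159, all by edgeR. The negative gene was *Aldh1l1*, a cytosolic folate enzyme, at -2.30 ± 0.65, adjusted p = 0.0157, which lost its call where genes with as little as 1 count were kept.

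Arginine and proline enzymes were mostly not called: 4 of 25 were positive and 1 negative, and 6 and 4 without the set-apart Abcb10-null libraries. *Aldh18a1* (chromosome 19, 40550257 to 40588463), which opens proline synthesis from glutamate, was the highest of the list. In WT cells *Aldh18a1* measured 138, 134, 133, 135 and 150.3 CPM at day 0 and 79.6, 88.8, 80.9, 105 and 94.6 CPM at day 2. In Abcb10-null cells *Aldh18a1* measured 102, 108, 89.5, 96.2 and 99.2 CPM at day 0 and 315, 89.8, 217, 308 and 148 CPM at day 2. At day 2, 4 Abcb10-null libraries were above every WT library of that day, and replicate 2 was inside the WT range. *Aldh18a1* had an interaction log2 fold change of 1.74 ± 0.30 (SE; edgeR adjusted p = 0.000656). The aspartate aminotransferase gene *Got1* had 1.73 ± 0.29, adjusted p = 0.000656, and *P4ha1*, a collagen prolyl hydroxylase subunit, -0.81 ± 0.22, adjusted p = 0.0134, by edgeR. Among 14 polyamine genes 4 were positive and none was negative (edgeR, 0 at an unadjusted p under 0.05, 0 by DESeq2), with 2 positive without the set-apart WT libraries and 4 positive and 2 negative without the set-apart Abcb10-null libraries. Spermidine synthase *Srm* had 1.04 ± 0.20, adjusted p = 0.00139 and ornithine decarboxylase *Odc1* 0.68 ± 0.17, adjusted p = 0.00705.

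Of 25 amino acid transporters, 7 were positive and 3 negative. The glutamine and neutral amino acid importer gene *Slc1a5* had an interaction of 1.10 ± 0.23, adjusted p = 0.00255, and *Slc7a7*, which exchanges arginine and lysine for neutral amino acids, 1.33 ± 0.26, adjusted p = 0.00159. Of the 3 negative ones, *Slc38a10* kept its call under every alternative, at -0.59 ± 0.12, adjusted p = 0.00226. Leaving out the set-apart Abcb10-null libraries gave 13 positive and 5 negative, and leaving out the WT pair 10 and 1. Among 14 genes of eIF2, its exchange factor, its kinases and its phosphatase, 5 were positive and 2 negative. The eIF2 subunit gene *Eif2s2* had 0.94 ± 0.19, adjusted p = 0.00186 and the exchange factor subunits *Eif2b3* 0.97 ± 0.21, adjusted p = 0.00308 and *Eif2b1* 0.70 ± 0.16, adjusted p = 0.00377, all 3 of which fell in WT cells. The negative members were *Eif2ak2*, above, and *Eif2ak1*, the heme-regulated eIF2 kinase, at -0.67 ± 0.22, adjusted p = 0.0305, which lost its call in several settings that left out 1 library, WT day 0 replicates 1 and 2 among them.

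Transcripts for making ribosomes fell in WT cells and fell less, or not, in Abcb10-null cells. Of 46 ribosome biogenesis factors, 43 fell in WT cells and 23 fell and 3 rose in Abcb10-null cells. The interaction was positive for 33, at a median of 0.77, and for none negative by edgeR (0 at an unadjusted p under 0.05 and 0 by DESeq2), with 37 positive without the set-apart Abcb10-null libraries and 28 without the set-apart WT libraries. *Ncl* (chromosome 1, 86344719 to 86359400) encodes nucleolin, an abundant nucleolar protein. In WT cells *Ncl* measured 689, 819, 899, 769 and 736 CPM at day 0 and 347, 320.4, 361, 469 and 340.4 CPM at day 2. In Abcb10-null cells *Ncl* measured 509.7, 405, 317, 376 and 443 CPM at day 0 and 503, 615, 557, 438 and 490.3 CPM at day 2. At day 0 the Abcb10-null libraries lay below all WT libraries, and at day 2 the ranges overlapped through WT replicate 4. *Ncl* had an interaction log2 fold change of 1.44 ± 0.18 (SE; edgeR adjusted p = 2.51e-05), and Abcb10-null replicate 2 had the highest day 2 value of its group. The assembly factor genes *Nop14*, *Mphosph10* and *Ltv1* of the small subunit had interactions of 1.35 ± 0.23, adjusted p = 0.000593, 1.38 ± 0.26, adjusted p = 0.00118, and 1.48 ± 0.28, adjusted p = 0.00118, by edgeR.

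Mitochondrial ribosomal proteins were positive for 36 of 78 genes, at a median of 0.40, and negative for none by edgeR (0 at an unadjusted p under 0.05 and 0 by DESeq2). In WT cells 71 of them fell, and in Abcb10-null cells 43 fell and 2 rose. Examples were *Mrps31*, at 1.12 ± 0.20, adjusted p = 0.00105, and *Mrps27*, at 0.85 ± 0.15, adjusted p = 0.000954. Without the set-apart Abcb10-null libraries 42 were positive and 1 negative, and without the set-apart WT libraries 24 were positive. Cytosolic ribosomal proteins were positive for 10 of 80, near the share of all genes, although their median was 0.39. None was negative by edgeR (0 at an unadjusted p under 0.05 and 0 by DESeq2), 30 were positive at an unadjusted p under 0.05, and without the set-apart WT libraries 1 of the 80 was positive. *Rpl12*, of the large subunit, had 0.83 ± 0.22, adjusted p = 0.0127. In WT cells 71 of the 80 fell.

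Replication-dependent histone transcripts, which are normally made only in S phase and lack poly(A) tails, were seen here because the libraries were made from total RNA. Of 64 tested, 52 had a positive interaction and 1 a negative one, at a median of 1.4. In Abcb10-null cells 51 rose, and in WT cells 6 rose and 15 fell. At day 0, 25 were lower in Abcb10-null cells and at day 2, 47 were higher. Positive ones numbered 53 without the set-apart Abcb10-null libraries and 45 without the set-apart WT libraries. *Hist4h4* (chromosome 6, 136801553 to 136804415) encodes a histone H4. In WT cells *Hist4h4* measured 632, 640, 557, 582 and 578 CPM at day 0 and 607, 679.9, 791, 958 and 676 CPM at day 2. In Abcb10-null cells *Hist4h4* measured 429, 389, 473, 413 and 387 CPM at day 0 and 3108, 858, 2737, 3162 and 1868 CPM at day 2. Abcb10-null replicate 2 was within the WT range at day 2, and the other 4 were above it. *Hist4h4* had an interaction log2 fold change of 2.18 ± 0.31 (SE; edgeR adjusted p = 0.00011). The H4 genes *Hist1h4a* and *Hist1h4j* had 2.24 ± 0.30, adjusted p = 5.2e-05, and 1.91 ± 0.26, adjusted p = 5.49e-05, by edgeR. *Hist2h2be*, an H2B gene, was the negative one, at -1.33 ± 0.33, adjusted p = 0.00742. Histone genes are near-identical copies, and reads may have been shared between them, so single members are uncertain. Genes with names from Hist1h to Hist4h together took 5.16, 2.51, 4.02, 4.92 and 4.40% of the counts of the Abcb10-null day 2 libraries. They took 1.22 to 1.88% in Abcb10-null day 0, 2.04 to 2.29% in WT day 0 and 2.08 to 2.84% in WT day 2 libraries.

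Other S phase genes were called at about the share of all genes tested. Of 45 DNA replication and nucleotide genes, 7 were positive and 4 negative. The origin complex subunit *Orc6* had 0.76 ± 0.17, adjusted p = 0.00402, the helicase subunit *Mcm5* -0.55 ± 0.16, adjusted p = 0.016, and the flap endonuclease *Fen1* -0.77 ± 0.16, adjusted p = 0.00259, by edgeR. These counts turned on single groups of libraries, with 16 positive and 6 negative without the set-apart Abcb10-null libraries and 1 and 2 without the set-apart WT libraries. Mitosis and cytokinesis genes were negative for 10 of 40 and positive for none by edgeR (2 at an unadjusted p under 0.05 and 0 by DESeq2). Without the set-apart Abcb10-null libraries 19 were negative and 2 positive, and without the set-apart WT libraries 7 were negative. The negative ones included *Anln*, a scaffold of the contractile ring, at -0.69 ± 0.14, adjusted p = 0.00191, and the motor genes *Kif23* and *Kif2c*, at -0.65 ± 0.17, adjusted p = 0.0102, and -0.53 ± 0.14, adjusted p = 0.00985. Of 21 G1 cyclin, kinase and inhibitor genes 2 were positive and 4 negative. *Cdkn1a*, which encodes the cell cycle inhibitor p21, had -1.39 ± 0.36, adjusted p = 0.0097, the inhibitor gene *Cdkn2c* -0.87 ± 0.18, adjusted p = 0.00215, and the cyclin gene *Ccnd2* 0.81 ± 0.17, adjusted p = 0.00256.

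Most transcripts of heme synthesis enzymes rose in both genotypes, and heme itself was not measured here. Of the 9 enzymes, 8 rose in WT cells and 7 rose and 1 fell in Abcb10-null cells, and 2 had a negative interaction, at a list median of -0.38. None was positive by edgeR (0 at an unadjusted p under 0.05 and 0 by DESeq2). *Ppox* (chromosome 1, 171275990 to 171281186) encodes protoporphyrinogen oxidase, the step before the last. In WT cells *Ppox* measured 22.1, 18.3, 17.4, 17.7 and 20.5 CPM at day 0 and 105, 113, 78.8, 75.6 and 108 CPM at day 2. In Abcb10-null cells *Ppox* measured 17.01, 21.3, 25.99, 22.8 and 22.1 CPM at day 0 and 34.2, 43.1, 29.9, 33.4 and 59.7 CPM at day 2. At day 0 the genotypes overlapped, and at day 2 every Abcb10-null library was below every WT library. *Ppox* had an interaction log2 fold change of -1.45 ± 0.23 (SE; edgeR adjusted p = 0.000376), and rose by 2.32 ± 0.17 (adjusted p = 2.58e-10) in WT and 0.88 ± 0.16 (adjusted p = 0.000155) in Abcb10-null cells. A gene on the other strand, *B4galt3*, overlaps 17.5% of it, and the strand setting of the counting was not stated. *Fech*, which inserts iron into heme, had -0.43 ± 0.11, adjusted p = 0.0095, and lost its call in a fit of all 30 libraries. *Alas2*, the first and rate-setting enzyme of the erythroid pathway, had -0.45 ± 0.34, adjusted p = 0.346, and was not called. At day 2 itself 7 of the 9 enzymes were lower in Abcb10-null cells.

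Iron genes were negative for 4 of 14 and positive for none by edgeR (0 at an unadjusted p under 0.05 and 0 by DESeq2). Without the set-apart WT libraries 2 were negative, and without the set-apart Abcb10-null libraries 5 were negative and 1 positive. *Tfrc* (chromosome 16, 32608920 to 32632794) encodes the transferrin receptor, through which erythroid cells take up iron. In WT cells *Tfrc* measured 981, 939, 1034, 1247 and 886 CPM at day 0 and 2013, 1977, 1588, 1131 and 1221 CPM at day 2. In Abcb10-null cells *Tfrc* measured 1212, 1098, 1161, 1227 and 1295 CPM at day 0 and 899, 928, 1182, 882 and 558 CPM at day 2. WT values of day 2 were highest in the set-apart replicates 1 and 2, and the ranges of the genotypes overlapped at day 2 only between WT replicate 4 and Abcb10-null replicate 3. *Tfrc* had an interaction log2 fold change of -1.07 ± 0.24 (SE; edgeR adjusted p = 0.00357). The iron exporter gene *Slc40a1* had -0.63 ± 0.16, adjusted p = 0.00973. Heme transport and breakdown showed 1 positive and 1 negative gene of 11. Globin genes and the globin chaperone were called in neither direction (0 of 4 by edgeR, 0 at an unadjusted p under 0.05, 0 by DESeq2), but globin RNA had been depleted.

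Red cell membrane and blood group genes were negative for 7 of 26 and positive for 1. The cytoskeletal protein gene *Add1* had -0.85 ± 0.18, adjusted p = 0.00267, the blood group antigen gene *Kel* -0.79 ± 0.19, adjusted p = 0.00703, and the complement regulator gene *Cd55* -0.87 ± 0.23, adjusted p = 0.0101, by edgeR. Without the set-apart WT libraries 3 were negative, and without the set-apart Abcb10-null libraries 7 were negative and 3 positive. Erythroid transcription factors were negative for 5 of 15 and positive for 1. *Klf1* (chromosome 8, 84901928 to 84905291) encodes the master activator of globin, membrane and heme genes. In WT cells *Klf1* measured 364, 369.97, 319.8, 309 and 337 CPM at day 0 and 285, 280.3, 311, 341 and 297 CPM at day 2. In Abcb10-null cells *Klf1* measured 305, 329, 381, 347 and 336 CPM at day 0 and 149, 250.4, 151, 130.2 and 197 CPM at day 2. The genotypes overlapped at day 0, and at day 2 every Abcb10-null library was below every WT library. *Klf1* had an interaction log2 fold change of -0.79 ± 0.18 (SE; edgeR adjusted p = 0.00529), with a response of -0.17 ± 0.13 (adjusted p = 0.282) in WT and -0.95 ± 0.13 (adjusted p = 3.86e-06) in Abcb10-null cells. *Sox6*, a factor of terminal maturation, had -1.89 ± 0.33, adjusted p = 0.000724. Without the set-apart WT libraries 3 of the 15 were negative, and without the set-apart Abcb10-null libraries 7 were negative and 2 positive. Ubiquitin and export genes of late maturation were negative for 4 of 11 and positive for none by edgeR (1 at an unadjusted p under 0.05 and 0 by DESeq2), among them *Ranbp10* at -1.61 ± 0.30, adjusted p = 0.00118, and the ubiquitin-conjugating enzyme gene *Ube2l6*, which also serves the interferon-induced modifier ISG15, at -1.46 ± 0.15, adjusted p = 2.86e-06. Without the set-apart WT libraries 2 of the 11 were negative.

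Progenitor and leukemia factors were positive for 4 of 14 and negative for 3. The list as a whole leaned to neither side, with a median of 0.066 against 0.019 for all genes tested and values from -1.42 to 1.29. The members described here are positive ones. *Myb* (chromosome 10, 21124935 to 21160984) encodes a factor that keeps progenitors dividing and declines as they mature. In WT cells *Myb* measured 250.1, 268, 237, 260.02 and 251 CPM at day 0 and 22.9, 24.4, 47.9, 57.998 and 55.7 CPM at day 2. In Abcb10-null cells *Myb* measured 385, 372, 349, 415 and 399 CPM at day 0 and 174, 119, 125, 180.2 and 137 CPM at day 2. It fell in both genotypes, and all Abcb10-null libraries of day 2 stayed above all WT libraries of that day. *Myb* had an interaction log2 fold change of 1.22 ± 0.27 (SE; edgeR adjusted p = 0.00397). *Myc*, a growth factor-driven activator of ribosome production, had 0.81 ± 0.18, adjusted p = 0.00411, and *Id1*, an inhibitor of differentiation factors, 1.29 ± 0.20, adjusted p = 0.000305, by edgeR. The E-box letters CACGTG, the site of MYC and related factors, were in 6 (19.4%) of the 31 promoters present for positive ribosome biogenesis genes. They were in 14.2% of the promoters of all positive genes and 10.4% of those of all genes tested. Of the 13 promoters present for positive cytosolic tRNA synthetases, 4 held them. A part of MYC in these responses was not tested. The erythropoietin and Kit signalling list held 1 positive and 3 negative genes of 14.

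Glycolysis genes were mostly negative where they were called. Of 24 glycolysis genes 10 were negative and 1 positive, at a median of -0.68. In Abcb10-null cells 17 fell and in WT cells 6 fell and 5 rose. There were 20 negative ones and 1 positive one without the set-apart Abcb10-null libraries, and 10 negative without the set-apart WT libraries. *Pkm* (chromosome 9, 59656368 to 59679375) encodes pyruvate kinase, the last step. In WT cells *Pkm* measured 3104, 2261, 2299, 2028 and 2150.2 CPM at day 0 and 1531, 1822, 2212, 1733 and 2133 CPM at day 2. In Abcb10-null cells *Pkm* measured 2910.4, 3621, 4316, 3612 and 3998 CPM at day 0 and 1638, 2146, 945, 1686 and 1831 CPM at day 2. At day 0 the genotypes overlapped only between WT replicate 1 and Abcb10-null replicate 1, the other Abcb10-null libraries being higher, and at day 2 they overlapped, with Abcb10-null replicate 3 the lowest. *Pkm* had an interaction log2 fold change of -0.83 ± 0.24 (SE; edgeR adjusted p = 0.0158). The gene model *Gm49759* on the same strand overlaps 15.3% of it. The lactate exporter gene *Slc16a3* had -0.87 ± 0.19, adjusted p = 0.00295, and *Pdk1*, which inhibits pyruvate dehydrogenase in mitochondria, -0.71 ± 0.16, adjusted p = 0.00402. Hypoxia-inducible genes were negative for 6 of 13 and positive for none by edgeR (0 at an unadjusted p under 0.05 and 0 by DESeq2), including the histone demethylase gene *Kdm3a* at -0.64 ± 0.18, adjusted p = 0.0151.

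Sterol and fatty acid synthesis was negative for 11 of 33 genes and positive for 2, at a median of -0.38. The genes of the master regulators of these pathways were both negative, *Srebf2* at -1.16 ± 0.29, adjusted p = 0.00811, and *Srebf1* at -0.88 ± 0.19, adjusted p = 0.00347, by edgeR. The enzyme gene *Fdps* had -0.73 ± 0.17, adjusted p = 0.0043, and *Insig1*, which holds the regulators in the endoplasmic reticulum, -0.87 ± 0.22, adjusted p = 0.0091. Without the set-apart Abcb10-null libraries 19 were negative and 4 positive, and without the set-apart WT libraries 7 were negative. Autophagy genes, many of which erythroid cells induce to clear organelles, were negative for 7 of 22 and positive for 1. Members were *Atg9a*, a membrane protein of the forming autophagosome, at -1.497 ± 0.39, adjusted p = 0.00981, *Wipi1* at -0.89 ± 0.24, adjusted p = 0.0135, *Ulk2*, a starting kinase, at -0.74 ± 0.20, adjusted p = 0.0128, and *Pink1*, which marks damaged mitochondria, at -0.53 ± 0.15, adjusted p = 0.0171.

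Mitochondrial chaperones and proteases were positive for 7 of 14, among them the heat shock proteins *Hspa9*, at 1.38 ± 0.27, adjusted p = 0.00146, and *Hspd1*, at 0.77 ± 0.16, adjusted p = 0.00298, by edgeR, and none was negative (0 at an unadjusted p under 0.05 and 0 by DESeq2). Without the set-apart WT libraries 4 of the 14 were positive. Nuclear-encoded respiratory chain subunits were positive for 14 of 79 and negative for none (edgeR, 1 at an unadjusted p under 0.05, 0 by DESeq2), led among those named by *Ndufb4* of complex I at 0.95 ± 0.27, adjusted p = 0.0153, but without the set-apart WT libraries 2 were positive and 2 negative. Of 7 transcripts made from mitochondrial DNA 4 were positive and none negative (edgeR, 0 at an unadjusted p under 0.05, 0 by DESeq2). *mt-Cytb*, at 14145 to 15288 of the mitochondrial genome, encodes a core subunit of complex III. In WT cells *mt-Cytb* measured 424, 575, 594, 456 and 516 CPM at day 0 and 384, 273, 387, 544 and 408 CPM at day 2. In Abcb10-null cells *mt-Cytb* measured 177, 109, 135, 124 and 75.98 CPM at day 0 and 214, 304, 336, 242 and 429 CPM at day 2. It began lower in every Abcb10-null library and at day 2 overlapped the WT range. *mt-Cytb* had an interaction log2 fold change of 1.66 ± 0.28 (SE; edgeR adjusted p = 0.000674). Without the set-apart Abcb10-null libraries 2 of the 7 were positive, and without the set-apart WT libraries 2.

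Among genes named by rank that belong to no list above, *Fcgr1* (chromosome 3, 96282909 to 96293969), the high-affinity receptor for IgG, was the highest. In WT cells *Fcgr1* measured 9.804, 11.4, 13.9, 11.1 and 13.4 CPM at day 0 and 1.73, 2.55, 1.49, 2.79 and 2.14 CPM at day 2. In Abcb10-null cells *Fcgr1* measured 10.3, 7.55, 4.604, 8.11 and 6.29 CPM at day 0 and 51.8, 4.499, 25.2, 50.3 and 10.5 CPM at day 2. It fell in all WT libraries, while the Abcb10-null values of day 2 spread from 4.50 to 51.8, replicates 2 and 5 being lowest. *Fcgr1* had an interaction log2 fold change of 4.42 ± 0.62 (SE; edgeR adjusted p = 8.71e-05).

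*Thy1* (chromosome 9, 44043384 to 44048579), a surface glycoprotein of progenitors and T cells, fell in both genotypes and less in Abcb10-null cells. In WT cells *Thy1* measured 16.9, 22.2, 18.2, 14.8 and 23.1 CPM at day 0 and 0.417, 0.533, 0.0677, 0.9904 and 0.619 CPM at day 2. In Abcb10-null cells *Thy1* measured 15.2, 12.7, 15.05, 15.4 and 11.4 CPM at day 0 and 4.47, 2.22, 2.08, 3.61 and 1.39 CPM at day 2. Every Abcb10-null library of day 2 was above every WT library of that day, at low levels. *Thy1* had an interaction log2 fold change of 2.80 ± 0.44 (SE; edgeR adjusted p = 0.000305). Other positive genes of this rule were the chemokine receptor gene *Ccr1* at 2.80 ± 0.62, adjusted p = 0.0036, and *Cyb5r1*, a flavin reductase gene, at 2.58 ± 0.46, adjusted p = 0.00087. On the negative side stood the chemokine gene *Ccl9* at -3.54 ± 0.73, adjusted p = 0.00235, *Plac8* at -3.50 ± 0.52, adjusted p = 0.000187, the calcium channel gene *Cacna1g* at -3.24 ± 0.81, adjusted p = 0.00764, and *Shank1*, a synaptic scaffold gene, at -3.15 ± 0.55, adjusted p = 0.000724, by edgeR.

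Endoplasmic reticulum chaperones and the unfolded protein response held 8 positive and 3 negative genes of 21, with 8 and 4 without the set-apart Abcb10-null libraries but 3 and 0 without the set-apart WT libraries. The p53 targets held 3 and 4 of 12, with 4 and 4 and then 1 and 3 in the same order. Positive and negative genes numbered 2 and 4 of 25 for glutathione and antioxidant genes, 3 and 2 of 19 for the Bcl2 family and caspases, 2 and 1 of 13 for immediate early genes and 3 and 3 of 25 for leukocyte adhesion and signalling. Of these, the leukocyte genes gave 4 and 8 without the set-apart Abcb10-null libraries, and the Bcl2 family and caspases 0 and 2 without the set-apart WT libraries. The stress sensor *Atf6* had 0.80 ± 0.21, adjusted p = 0.00951, the NRF2 target *Srxn1* -0.85 ± 0.18, adjusted p = 0.00257, and *Keap1*, the inhibitor of NRF2, -0.56 ± 0.14, adjusted p = 0.00672. The death promoter gene *Bmf* had -2.40 ± 0.56, adjusted p = 0.00531. *Trp53inp1* had -2.13 ± 0.27, adjusted p = 3.51e-05, and *Mdm2*, which degrades p53, 0.82 ± 0.21, adjusted p = 0.00851, by edgeR. Of 35 genes that the study named, 14 were positive and 5 negative, and since the study chose them on these samples that is not independent evidence.

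Markers of other blood lineages summed to less than the erythroid ones in every group. The summed CPM of myeloid and mast cell markers was 106 to 115 in WT day 0, 11.7 to 21.2 in WT day 2, 197 to 229 in Abcb10-null day 0 and 7.25 to 24.5 in Abcb10-null day 2 libraries, and 2 of 9 tested were negative, with *Hdc*, of histamine synthesis, at -0.89 ± 0.28, adjusted p = 0.0261. Megakaryocyte markers summed to 843 to 946, 504 to 702, 1130 to 1270 and 586 to 1190 CPM in the same order, and 2 of 10 were negative, *Gp9* at -1.91 ± 0.40, adjusted p = 0.00251, and *Vwf* at -2.57 ± 0.58, adjusted p = 0.00402. None was positive in either list by edgeR (0 and 2 at an unadjusted p under 0.05, 0 and 0 by DESeq2). Lymphoid markers summed to at most 4.05 and fibroblast markers to at most 1.92 CPM in any library, with 2 and 1 members tested and none called (1 lymphoid marker at an unadjusted p under 0.05, and 0 by DESeq2). The part of these cells in the results above was not tested.

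Promoter letters were counted for all called genes as a description. In windows of positive genes, present for 1290 of 1679, the ATF4 letters were in 3.57%, the interferon letters in 2.4% and the E-box in 14.2%. In windows of negative genes, present for 1095 of 1509, the shares were 1.83%, 4.57% and 8.22%. The antioxidant response element letters TGACNNNGC were in 194 of the positive and 163 of the negative windows, and the E2F letters TTTCCCGC in 31 and 24. Fewer than 80% of each group of genes had a window, and 9556 of the 13976 symbols tested had one. Shares set beside those of all genes tested, here and above, therefore describe the windows present, and no difference between them was tested. Over the windows of all genes tested, TGACNNNGC was in 14.8% and TTTCCCGC in 2.26%. The GATA letters AGATAA were in 24.5% of the 49 windows of positive histone genes, against 6.82% of those of all genes tested. A match does not show that a factor binds.

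Day 5 libraries took no part in the interaction and show where its genes stood later. Of 1634 positive genes tested at day 5, 944 (57.8%) were higher in Abcb10-null than in WT cells and 55 (3.37%) lower, with a median of 0.518. Of 1449 negative genes 590 (40.7%) were lower and 52 (3.59%) higher, with a median of -0.504. Of the 12473 genes tested in both fits, 20.1% were higher and 17.9% lower at day 5. Among positive genes called different at day 2 and not at day 0, 794 of 1190 were higher at day 5, and among negative ones 479 of 1064 were lower. ATF4 targets were higher for 30 of 30 genes, at a median of 2.05, tRNA synthetases for 21 of 23, at 1.12, and ribosome biogenesis factors for 40 of 46, at 0.809. Interferon-stimulated genes, in contrast, were higher for 10 and lower for 7 of 38 genes. The day 5 difference was 3.07 ± 0.79 (adjusted p = 0.00894) for *Trib3*, 1.99 ± 0.14 (adjusted p = 1.87e-06) for *Rars*, -1.49 ± 0.12 (adjusted p = 2.64e-06) for *Klf1* and -3.09 ± 0.33 (adjusted p = 2.68e-05) for *Tfrc*, and it was -0.11 ± 0.20 (adjusted p = 0.69) for *Irf7*, by edgeR. WT day 5 replicate 5 stood apart from its group in *Trib3* and *Tfrc*. The day 5 libraries were uneven. Abcb10-null replicate 4 had the lowest total of the series, 9906783, yet 36511 genes with a count, against 17774 to 18636 in replicates 1 to 3 and 27675 in replicate 5. WT replicate 3 had 29986 such genes at 10498239 counts, and WT replicates 1, 2, 4 and 5 had 22529, 25916, 26299 and 18948.

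**Figure D5:**
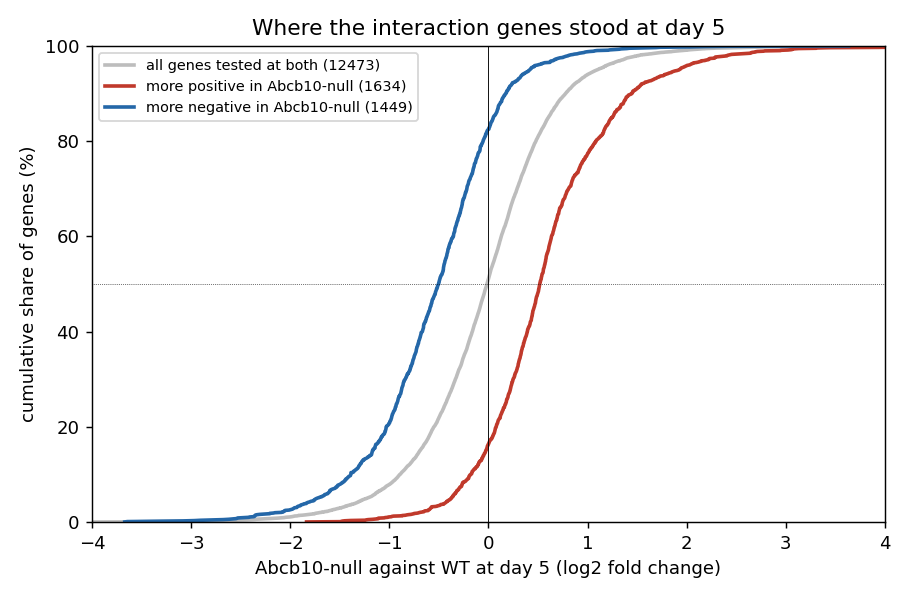
Cumulative percent of genes (vertical axis) by the log2 difference, Abcb10-null minus WT, at day 5 (horizontal axis), for genes of positive interaction, of negative interaction and all genes tested at both. The curve of the 1634 positive genes lies to the right of that of all genes and crosses the middle at 0.518, and that of the 1449 negative genes lies to the left and crosses it at -0.504.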

How the data were processed

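RNA of WT and Abcb10-null MEL cells was sequenced by the authors after depletion of ribosomal and globin RNA, as stranded total RNA libraries read from both ends. The deposited values are raw counts per gene, not normalized or filtered, that the authors made by trimming adapters with cutadapt, aligning to GRCm38 with STAR 2.6.1b and assigning reads to Ensembl genes with featureCounts 1.6.3 (versions as in the submitters' processing notes). How the counting treated strand, multimapped reads and fragments is not given in the sources used here, so reads of overlapping genes, antisense genes and near-identical copies may be misassigned.

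No reads were counted for 9219 of the 54532 genes listed. The annotation lacked 37 identifiers that held 0.0116% of all counts. Replicates of a group differed by more than counting error (lowest chi-square per degree of freedom 6.35), so errors come from the spread between libraries. Counts of the 20 libraries of days 0 and 2 were filtered by edgeR's filterByExpr, scaled by TMM and fitted as 4 groups of 5 with the quasi-likelihood test (edgeR 4.0.16, limma 3.58.1, R 4.3.3). The interaction and the simple contrasts came from that 1 fit, with p-values adjusted by Benjamini-Hochberg over the 13980 genes tested and a threshold of 0.05. Standard errors are the log2 fold change divided by the square root of F. Day 5 was tested in a separate fit of its 10 libraries over 12676 genes. The authors' comparisons used DESeq2, which was run here (1.42.0) as an alternative. The fits were tested on simulated data first.

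Genes were named by rule: the 10 most positive and 10 most negative interactions among protein-coding genes with a mean of at least 1 CPM and responses that did not overlap between genotypes (log2 of CPM plus 0.5), those with the smallest p-values, and the leading members of each list, 208 in all. The members and the gene lists were chosen with earlier results of these data known, and each list was described by its counts and median with no set test. Promoters came from RefSeq, 1 window a gene symbol, and 9556 of 13976 symbols tested had one. Exact matches on both strands were counted, with overlapping matches kept, for the interferon-stimulated response element (2 copies of GAAA separated by any 2 bases), the composite ATF4 site TGATGNAA, the E-box CACGTG and the GATA site AGATAA. The antioxidant response element (TGACNNNGC) and the E2F site (TTTCCCGC) were searched in the same way. Alternatives were DESeq2, other scaling and filters, a replicate block, all 30 libraries in 1 fit, each library left out in turn and, chosen after seeing the data, the set-apart pairs left out. Same-numbered libraries were compared over 30 pairs, with correlations of their deviations from -0.16 to 0.25 (median -0.02), 3 of them over 0.1, so replicate numbers were not taken as pairs.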

Additional observations from a re-analysis of the deposited data

Results flagged for a closer look

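The difference between the genotypes in their response was itself tested for every gene, and 1679 genes were flagged as more positive and 1509 as more negative in Abcb10-null cells. The 23 genes given with a value in every library are all among these, which follows from how they were chosen, since genes were taken for that account because their difference had passed the test, *Abcb10* apart. On the log2 scale the differences were -3.81 for *Irf7*, -2.45 for *Rsad2*, -2.02 for *Irgm1* and -1.22 for *Eif2ak2*, the interferon-stimulated genes. They were 4.55 for *Trib3*, 3.57 for *Chac1*, 3.18 for *Ddit3*, 2.87 for *Slc7a11*, 2.12 for *Mthfd2*, 1.74 for *Aldh18a1*, 1.68 for *Rars* and 1.52 for *Atf4*, the genes of the amino acid response. For growth and histone genes they were 1.44 for *Ncl*, 2.18 for *Hist4h4* and 1.22 for *Myb*, and for the mitochondria-encoded *mt-Cytb* the difference was 1.66. For erythroid and metabolic genes they were -1.45 for *Ppox*, -1.07 for *Tfrc*, -0.79 for *Klf1*, -0.83 for *Pkm* and -0.80 for *Abcb10*. The surface proteins *Fcgr1* and *Thy1* had 4.42 and 2.80.

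Single libraries far from the other 4 of their group were looked for in 92 groups, and 4 were found, where chance flags about 1 in 20 groups. *Abcb10* was 309 CPM in Abcb10-null day 2 replicate 3 against 162 to 187 in the others, with a gap of 0.832 of the range. *Trib3* was 73.9 CPM in WT day 0 replicate 1 against 59.1 to 62.6 (0.764). *Pkm* was 3104 CPM in the same library against 2028 to 2299 (0.748). *Ncl* was 469 CPM in WT day 2 replicate 4 against 320.4 to 361 (0.727).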

How the results depend on the processing

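Without Abcb10-null day 2 replicates 2 and 5, an alternative chosen after seeing the data, 2774 genes were more positive and 3005 more negative, and the genotypes differed at day 0 in 2972 genes against 1898. Without WT day 2 replicates 1 and 2, also chosen after seeing the data, 965 were more positive and 826 more negative. With each library left out in turn the counts ran from 1092 (without Abcb10-null day 2 replicate 4) to 2376 positive genes and from 1180 to 2384 (without Abcb10-null day 2 replicate 2) negative genes. The cause was not tested. In all 20 such fits 953 of the 1679 and 1022 of the 1509 genes kept their call. The same fits gave 7404 to 8592 genes for the response of WT cells, 5481 to 6451 for that of Abcb10-null cells, and 1283 to 2324, 5345 to 7092 and 3787 to 5594 for the genotypes at days 0, 2 and 5. A replicate block gave 1566 and 1513 genes, and replicate numbers did not pair the libraries. DESeq2 gave 1841 and 1879, sharing 1664 and 1508 with the main test, and a fit of all 30 libraries 1368 and 1269. The share of called genes that were positive ran from 44.9 to 53.9% over the settings, against 52.7%. Where genes with as little as 1 count were kept, the median interaction of all genes was 0.133 against 0.0192. Of the 208 named genes none reversed and 132 kept their call under every alternative run, among them the 23 given by library. Of the rest, 60 lost it without the set-apart WT libraries and 32 in the fit of all 30 libraries. A gene not called may still differ, since 5 libraries a group and totals of 13829992 counts or more at days 0 and 2 limit what can be told apart.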
